A study of Rattus norvegicus with 6 samples.

Results

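The subunits of the NADPH oxidases were followed in left ventricle of diabetic OLETF rats and non-diabetic LETO rats. They were the 8 genes Nox1, Nox4, Cybb, Cyba, Ncf1, Ncf4, Rac1 and Rac2, chosen by name among the 26456 gene names on the array, and each was measured by 1 probe. The OLETF group held 3 male rats of the OLETF strain labelled with type 2 diabetes, 2 of them aged 27 weeks and 1 aged 28 weeks. The LETO group held 3 male rats of the LETO strain labelled as healthy controls, 1 of them aged 27 weeks and 2 aged 28 weeks. OLETF is an inbred rat strain that becomes obese and diabetic without treatment, and LETO is its usual control strain. The disease and the strain's genome are present together in every OLETF rat, so their parts in a difference cannot be told apart. Total RNA of each ventricle was read on its own 1-colour array. The question was which genes differ between the diabetic and the control heart.

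NADPH oxidases move electrons from NADPH across a membrane onto oxygen, and so form superoxide or hydrogen peroxide. The catalytic core is a membrane protein of the Nox family, with Cyba (p22phox) as the stabilising partner of several of them. Cybb, the catalytic subunit of phagocytes, and Nox1 depend on cytosolic organisers and activators and on a Rac GTPase, whereas Nox4 is active with Cyba alone and is regulated largely by its amount. In the heart Nox4 is known from cardiomyocytes, endothelium and fibroblasts, and Cybb from cardiomyocytes, endothelium and infiltrating phagocytes.

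Because every gene rested on a single 60-base oligonucleotide, the probes decide what was measured. The probes of Nox4, Cybb, Ncf4 and Rac1 are given 5′ to 3′ as the files list them, as the sequences behind the catalytic subunits that gave a signal, an organiser partner and the GTPase with repeated spots.
Nox4: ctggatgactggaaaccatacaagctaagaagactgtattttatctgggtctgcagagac
Cybb: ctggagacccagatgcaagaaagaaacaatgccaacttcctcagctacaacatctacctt
Ncf4: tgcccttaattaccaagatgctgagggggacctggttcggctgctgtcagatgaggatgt
Rac1: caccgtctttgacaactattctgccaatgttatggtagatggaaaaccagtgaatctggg
In the rn4 build of the files the Nox4 probe lies at chr1:143584026-143586154, a span of 2129 bases for 60 bases of probe, so it crosses an intron there. The Rac1 probe, at chr12:11390067-11391924, spans 1858 bases and crosses an intron as well. The remaining mapped probes are contiguous. They lie at chrX:25518505-25518564 for Cybb, chr19:52713156-52713215 for Cyba, chr12:23587232-23587291 for Ncf1, chr7:116190216-116190275 for Ncf4 and chr7:116520067-116520126 for Rac2, and the files list no position for Nox1. The longest run of bases that a member's probe shared with any other probe on the array was between 12 and 17 bases.

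Signal is given as log2 of the processed spot intensity minus the 75th percentile of the same array, so that 0 is the level of that percentile. That percentile corresponded to an intensity between 887.3 and 1228.2 in OLETF and between 952.5 and 1056.9 in LETO. Between 75.55% and 79.8% of the 42877 non-control spots of an array were well above background, and 0 were saturated. Heart muscle was present as labelled, since 9 of 9 cardiomyocyte markers were well above background on all 6 arrays. The 3 LETO arrays and OLETF 1 shared a slide, and OLETF 2 and OLETF 3 lay on the other slide. LETO 1 stood apart from the rest, with the lowest quality weight of the 6 arrays (0.205). The test took genes whose probe was clear of background in every array of OLETF, of LETO or of both, and 18816 genes qualified. limma called 480 of them at a Benjamini-Hochberg adjusted p below 0.05, 283 higher and 197 lower in OLETF.

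Of the 8 subunits 7 were tested, and Nox1 was not. Nox4 was called higher and Ncf1 lower in OLETF, and the other 5 tested subunits were not called. Nox4 passed the filter on dim probes only through OLETF, the strain in which it was higher, so the counts over tested subunits that include it are a description. For comparison, 2.55% of all tested genes were called, 1.5% as higher and 1.05% as lower. The median log2 difference of the 7 tested subunits was −0.12, with 3 values above 0 and 4 below, and that of all tested genes was −0.008. The 3 OLETF values did not overlap the 3 LETO values for 4 of the 7 subunits, as was the case for 17.4% of all tested genes. Nox4 was the one lying wholly above LETO, against 8.92% of all genes, and Ncf1, Ncf4 and Rac1 lay wholly below it, against 8.43%. In every log2 difference below, a positive value means a higher signal in OLETF.

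**Figure D1:**
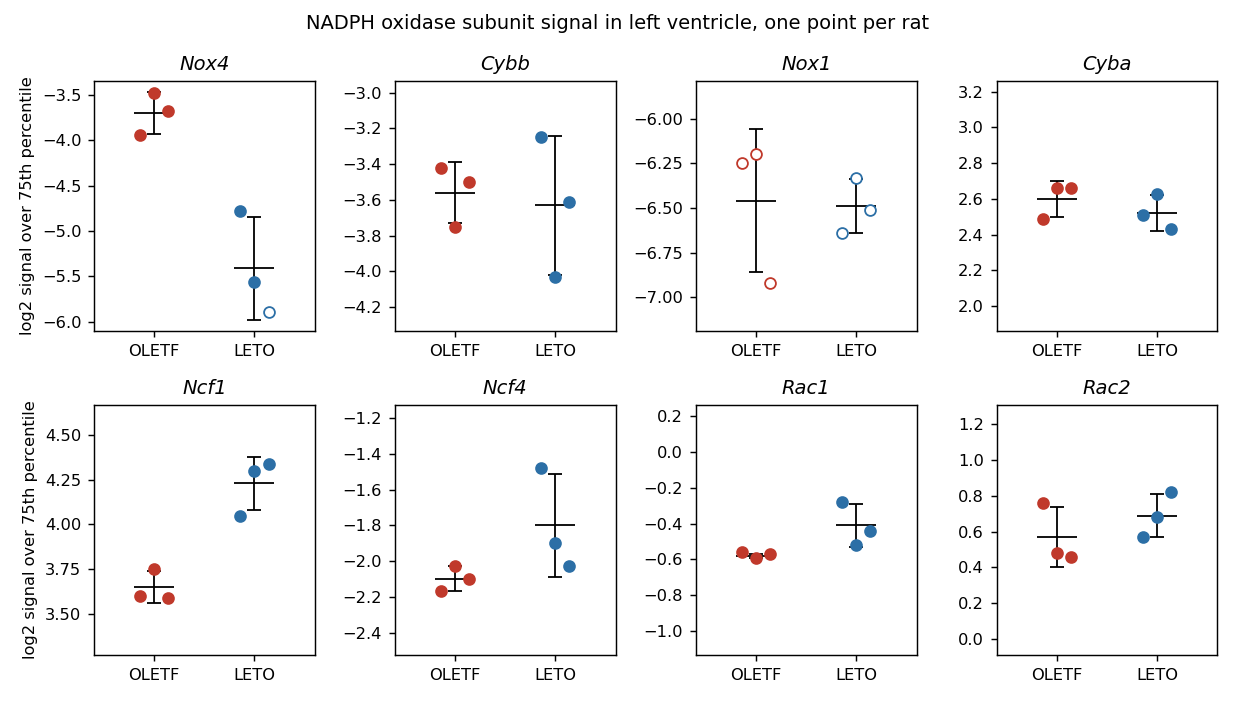
Each panel plots log2 signal over the array's 75th percentile for 1 subunit, with 1 point per rat, OLETF on the left and LETO on the right. The long bar is the mean and the whiskers 1 SD (n = 3), open points were not well above background, and the vertical axis differs between panels. OLETF lies above LETO without overlap for Nox4 and below it without overlap for Ncf1.

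Nox4, the catalytic subunit that forms mainly hydrogen peroxide and needs no cytosolic organiser, was the subunit called higher. Its processed intensity was 79.75, 79.3 and 96.05 in OLETF 1 to 3, against 38.37, 20.16 and 17.85 in LETO 1 to 3. The scanner software gave these spots an error of 8.89, 9.06 and 10.29 in OLETF and of 5.27, 4.43 and 5.46 in LETO. The Nox4 probe was well above background on 3 of 3 OLETF arrays and on 2 of 3 LETO arrays, so the LETO level is near the limit of what the arrays measure. The lowest signal called well above background was 19.78 on LETO 3, where Nox4 was below it.

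On the log2 scale Nox4 stood at −3.94, −3.48 and −3.68 in OLETF and at −4.78, −5.56 and −5.89 in LETO. The lowest OLETF rat was 0.84 above the highest LETO rat, so the strains did not overlap. The means were −3.70 ± 0.23 in OLETF and −5.41 ± 0.57 in LETO (SD, n = 3 each), and the LETO spread was the wider one. The difference was 1.71 ± 0.28 (SE), a 3.27-fold higher signal with a 95% interval from 2.08 to 5.15, and limma's adjusted p was 0.0246. Nox4 entered the test through OLETF alone, since the probe was not well above background on LETO 3, and without the filter on dim probes its adjusted p was 0.0943. The fold is therefore set against a LETO level close to background, and its size depends on how background is treated.

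The direction of Nox4 held under every alternative that gave a value, but the call did not. Because the strains did not overlap, leaving out or weighting single arrays or blocking on slide could not turn the sign. With slide as a block, which compares OLETF 1 with the 3 LETO arrays of its slide, the difference was 1.47 and the adjusted p 0.335, and under this fit 0.558% of all genes were called. Leaving out OLETF 1, OLETF 2, OLETF 3 or LETO 2 gave adjusted p-values of 0.0588, 0.116, 0.107 and 0.0824 for Nox4. Without LETO 1 the Nox4 difference was 2.02 (adjusted p = 0.00746), and without LETO 3, where the probe was not above background, it was 1.47 (adjusted p = 0.0488). Normexp background correction with quantile normalization, which adds an offset of 50 to every intensity, gave Nox4 a smaller difference of 0.68 that was still called (adjusted p = 0.0134).

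Cybb (gp91phox or Nox2), the catalytic subunit of the phagocyte oxidase, was measured on all 6 arrays and was not called. Its log2 signal was −3.42, −3.75 and −3.50 in OLETF and −3.25, −4.03 and −3.61 in LETO, and the OLETF values lay inside the LETO range. The difference was 0.08 with a 95% interval from −0.40 to 0.55 (adjusted p = 0.959), and its sign turned without LETO 2 (−0.12). An increase of the size seen for Nox4 lies outside that interval. The difference between the changes of Nox4 and Cybb was not tested.

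Nox1, a catalytic subunit best known from colon and vascular smooth muscle, was not well above background on any array. Its processed intensity was 16.1, 12.03 and 10.13 in OLETF and 10.61, 11.82 and 11.59 in LETO. No strain difference could therefore be measured. A fit without the filter on dim probes gave a log2 difference of 0.03, with a 95% interval from −0.50 to 0.57.

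Cyba, the membrane partner that Nox1, Cybb and Nox4 share, was not called. Its log2 signal was 2.49, 2.66 and 2.66 in OLETF, against 2.51, 2.63 and 2.43 in LETO, and the strains overlapped. The difference was 0.08 ± 0.10 (SE) with a 95% interval from −0.15 to 0.31 (adjusted p = 0.899), and its sign turned with slide as a block (−0.03). No called change of Cyba accompanied the higher signal of Nox4.

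Ncf1 (p47phox), the cytosolic organiser that moves to the membrane and docks on Cyba once it is phosphorylated, was the subunit that fell. Its intensity was 14938.84, 11949.04 and 14766.56 in OLETF 1 to 3, against 17532.32, 18699.28 and 21398.06 in LETO 1 to 3, far above background on every array. On the log2 scale it stood at 3.60, 3.75 and 3.59 in OLETF and at 4.05, 4.30 and 4.34 in LETO. Each OLETF rat lay below each LETO rat, with 0.30 between the nearest values. The Ncf1 probe begins at base 2697 of its listed transcript. Its LETO mean was 4.23, beside −3.63 for Cybb, its partner in the phagocyte oxidase. Whether the probe reads Ncf1 alone was not tested.

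The means of Ncf1 were 3.65 ± 0.09 in OLETF and 4.23 ± 0.15 in LETO (SD, n = 3 each). The signal fell by 0.58 ± 0.11 (SE) on the log2 scale, to 66.8% of the LETO level, and limma's adjusted p was 0.0424. The 95% interval of the log2 difference ran from −0.84 to −0.33. With slide as a block the difference was −0.63 and the adjusted p 0.321. With scaling to the median of detected probes it was −0.56 and the adjusted p 0.0506. Leaving out OLETF 1, 2 or 3 gave Ncf1 adjusted p-values of 0.138, 0.0991 and 0.194, and leaving out LETO 2 or 3 gave 0.139 and 0.138. Without LETO 1 the fall of Ncf1 was called at −0.67 (adjusted p = 0.0187).

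**Figure D2:**
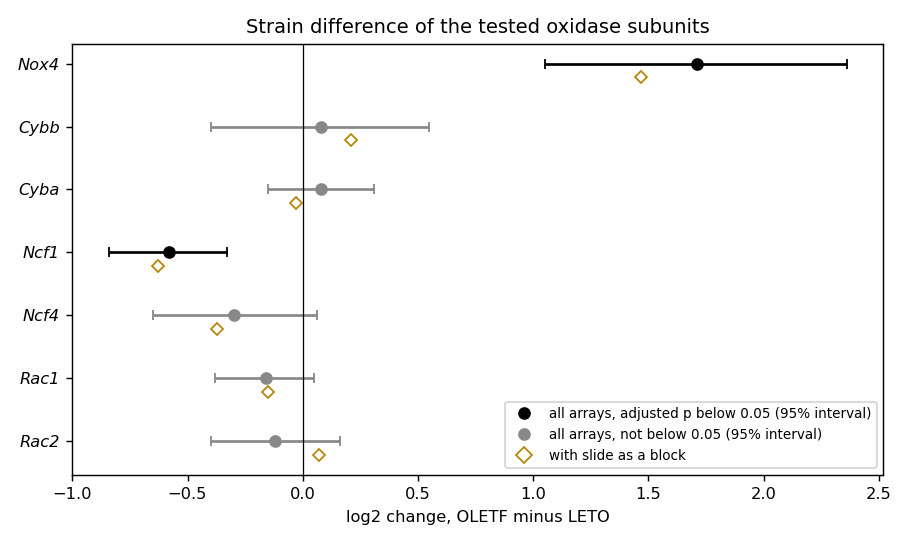
The horizontal axis is the log2 difference, OLETF minus LETO, for the 7 tested subunits, with circles for the fit on all arrays and bars for its 95% interval. Black circles passed an adjusted p of 0.05, grey ones did not, and open diamonds give the difference with slide as a block. Nox4 lies at 1.71 and Ncf1 at −0.58, and the intervals of the other 5 subunits cover 0.

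Ncf4 (p40phox), a phosphoinositide-binding partner of the phagocyte oxidase, was not called. Its log2 signal was −2.17, −2.03 and −2.10 in OLETF, against −1.48, −1.90 and −2.03 in LETO. The strains were separated by 0.01, and LETO 1 was the highest value. The difference was −0.30 with a 95% interval from −0.65 to 0.06 (adjusted p = 0.512), and without LETO 1 it was −0.14.

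Rac1, the widely expressed Rac GTPase that serves Nox1 and Cybb as well as the actin cytoskeleton, was read by 10 spots of its probe on each array. The SD between the spots of an array was between 0.027 and 0.057 on the log2 scale. The spot averages were −0.56, −0.59 and −0.57 in OLETF and −0.28, −0.52 and −0.44 in LETO. Every OLETF rat was lower than every LETO rat by a narrow margin, and the OLETF rats lay closer together (SD 0.01) than the LETO rats (SD 0.12). The difference of −0.16, with a 95% interval from −0.38 to 0.05, was not called (adjusted p = 0.589), and without LETO 1 the difference was −0.10.

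Rac2, the Rac GTPase of blood cells, overlapped between the strains. Its log2 signal was 0.76, 0.48 and 0.46 in OLETF and 0.57, 0.68 and 0.82 in LETO. The difference was −0.12 with a 95% interval from −0.40 to 0.16 (adjusted p = 0.84), and its sign turned with slide as a block (0.07).

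**Figure D3:**
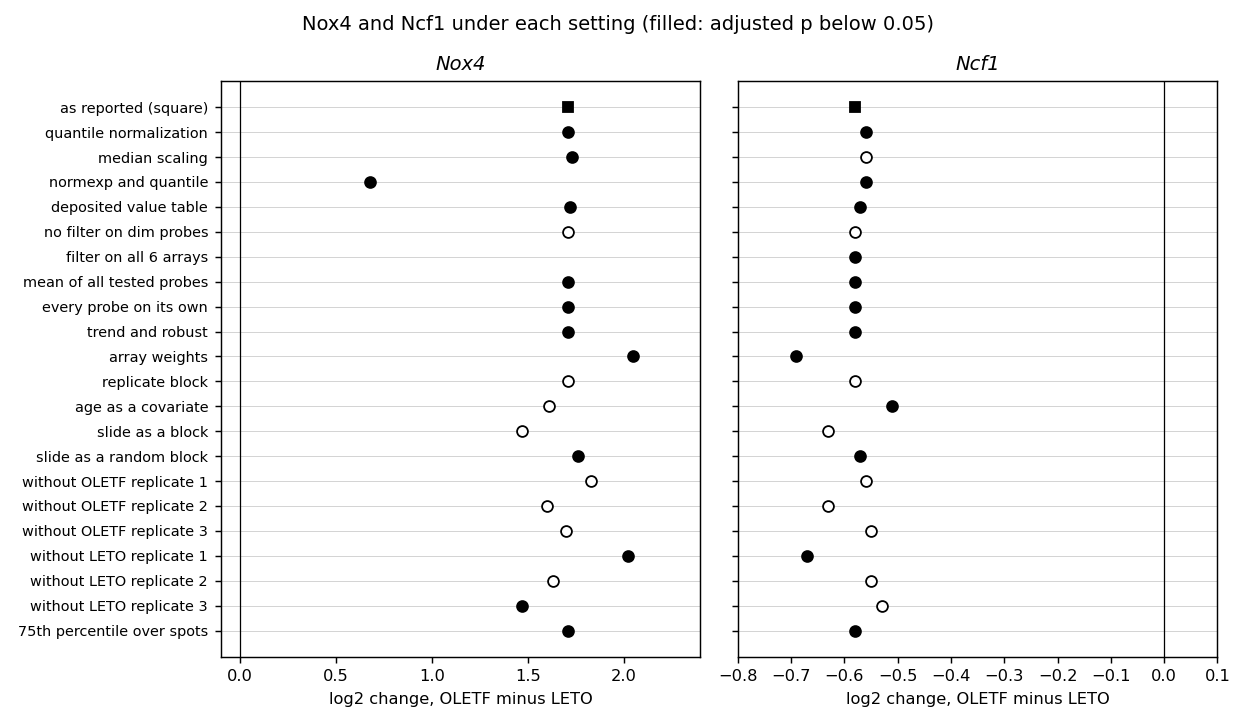
Each row is a processing setting and the horizontal axis is the log2 difference, OLETF minus LETO, for Nox4 on the left and Ncf1 on the right. The square is the value as reported, and filled symbols had an adjusted p below 0.05. All Nox4 values lie between 0.68 and 2.05 and all Ncf1 values between −0.69 and −0.51, and 12 alternatives kept the call for each gene. The alternatives are not independent. Each gene had 1 probe, so settings on the summary of probes reuse its values, and the deposited values are the same signal over an array constant.

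The tested partners and relatives of these subunits were not called. Of 13 listed partners 11 were on the array and 8 were tested, with 0 called in either direction and a median log2 difference of −0.05. Noxa1, an activator of the Nox1 complex, differed by −0.00 (95% interval from −0.23 to 0.23), and Noxo1, the counterpart of Ncf1 there, by 0.07 (from −0.15 to 0.28). Duox1, a calcium-regulated relative of the Nox enzymes, gave −0.24 (adjusted p = 0.703), and its maturation factor Duoxa1 gave −0.21 (adjusted p = 0.83). Nox3, known from the inner ear, and Duoxa2 were not well above background on any array.

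Regulators of Rac and of the organiser were likewise not called. Of 10 tested exchange factors, inhibitors and kinases 0 were called, with a median of 0.05. The nearest to the threshold were Pak1, a kinase that binds active Rac, at 0.37 (adjusted p = 0.0993) and the Rac exchange factor Tiam1 at 0.29 (adjusted p = 0.398). Among 11 tested genes of the TGF-beta, angiotensin and endothelin pathways, which are known to act upstream of Nox enzymes in heart and vessel, 0 were called and the median was −0.02. Endothelin 1 (Edn1) gave −1.02 (adjusted p = 0.411) and its receptor Ednra gave −0.40 (adjusted p = 0.275). Edn1 was well above background on 2 OLETF and 3 LETO arrays. It was thus tested only through LETO, where it was higher, and its value is a description.

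Enzymes that remove superoxide or peroxide were measured in full, with 13 of 13 tested, 0 called and a median of 0.04. Extracellular superoxide dismutase (Sod3) gave 0.30 (adjusted p = 0.393) and catalase (Cat) gave −0.28 (adjusted p = 0.289). Of 4 other oxidases that form superoxide or peroxide, aldehyde oxidase Aox1 was called higher, beside 1.5% of all tested genes. The others were not called. The median of the 4 was 0.61, beside −0.008 for all tested genes. Aox1 stood at −1.48, −1.53 and −1.42 in OLETF, against −2.21, −2.38 and −2.89 in LETO. Its difference was 1.02 ± 0.17 (SE; adjusted p = 0.0303), and blocking on slide gave 1.01 (adjusted p = 0.314).

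Phagocytes carry Cybb, Ncf1, Ncf4 and Rac2, and in bulk tissue fewer cells of a type and less RNA per cell cannot be told apart. Of 14 tested macrophage markers 1 was called higher and 0 lower, beside 1.5% and 1.05% of all tested genes, with a median of 0.07. It was Folr2, a folate receptor of resident macrophages, at 1.94 (adjusted p = 0.00031). With slide as a block Folr2 gave 1.79 (adjusted p = 0.00947). The summed signal of the 15 markers on the array was 43.2 to 50.8 times the 75th percentile in OLETF and 39.3 to 49.3 times in LETO. Such a sum gives most weight to the brightest genes, here Lyz2, C1qb and Cx3cr1. Csf1r, Cd163 and Itgam were not called, at 0.05, 0.10 and −0.13, and Mpeg1 was not well above background on any array. Of 9 general leukocyte markers 0 were called, with a median of 0.01, 5 values above 0 and 4 below. Their summed signal was 16.4 to 18.4 in OLETF and 16.7 to 19.0 in LETO. Named for the smallest p in this list, the pan-leukocyte phosphatase Ptprc (CD45) gave −0.38 (adjusted p = 0.265) and Coro1a −0.30 (adjusted p = 0.468). With slide as a block Ptprc gave −0.13 and Coro1a −0.08. Of 10 neutrophil markers 6 were not well above background on any array, S100a8 and S100a9 among them, and the summed signal was 0.193 to 0.284 in OLETF and 0.212 to 0.238 in LETO. Of its 3 tested genes, myeloperoxidase (Mpo) gave −0.21 (adjusted p = 0.713) and the receptor Csf3r gave 0.14 (adjusted p = 0.959). Csf3r was well above background on 3 OLETF arrays and 1 LETO array, and so was tested only through OLETF, where it was higher.

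Of 8 markers of T and natural killer cells 7 were tested. Of these 2 were called lower and 0 higher, beside 1.05% of all tested genes called lower, and the other 5 were not called. The log2 differences of the 7 were all below 0, with a median of −0.92 beside −0.008 for all tested genes. Cd8a, at −1.02, was well above background on 2 OLETF and 3 LETO arrays. It passed the filter on dim probes only through LETO, where it was higher. The counts and the median that include Cd8a are a description. The 9 cardiomyocyte markers were all below 0 as well, between −0.18 and −0.01. The summed signal of the T and natural killer cell markers, of which Nkg7 was the brightest, was 1.84 to 2.08 in OLETF and 2.87 to 3.45 in LETO. The called genes were Cd3g, a CD3 chain of T cells, with a log2 difference of −0.96 (adjusted p = 0.0178), and Nkg7, a granule protein of killer cells, with −0.84 (adjusted p = 0.022). Neither call held when slide was a block, where Cd3g stood at −0.70 with an adjusted p of 0.237 and Nkg7 at −0.80 with an adjusted p of 0.287. The part of these cells in the value of Ncf1 was not tested.

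The tested markers of fibroblasts, endothelium, cardiomyocytes and smooth muscle were not called. Of 8 tested fibroblast markers 0 were called, with a median of 0.06. Decorin (Dcn) gave 0.40 (adjusted p = 0.15), and periostin (Postn) gave −1.75 (adjusted p = 0.299). Postn was well above background on 2 OLETF and 3 LETO arrays. It was thus tested only through LETO, where it was higher, and its value is a description. Of 8 endothelial markers 0 were called, with a median of 0.08. The VEGF receptor Kdr gave 0.25 (adjusted p = 0.483) and Vwf gave −0.33 (adjusted p = 0.223). Of 9 cardiomyocyte markers 0 were called, with a median of −0.11, Myl2 at −0.18 (adjusted p = 0.448) and Ryr2 at −0.14 (adjusted p = 0.594). Of 4 tested smooth muscle markers 0 were called, with a median of −0.61, Acta2 at −0.44 (adjusted p = 0.239) and Tagln at −0.78 (adjusted p = 0.362). The summed signals of the fibroblast markers were 79.9 to 92.1 in OLETF and 63.5 to 83.8 in LETO, and those of the endothelial markers were 36.5 to 40.5 in OLETF and 33.7 to 38.3 in LETO. Those of the smooth muscle markers, of which Smtn was the brightest, were 18.1 to 20.5 in OLETF and 19.6 to 21.2 in LETO. The part of these cells in the value of Nox4 was not tested.

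**Figure D4:**
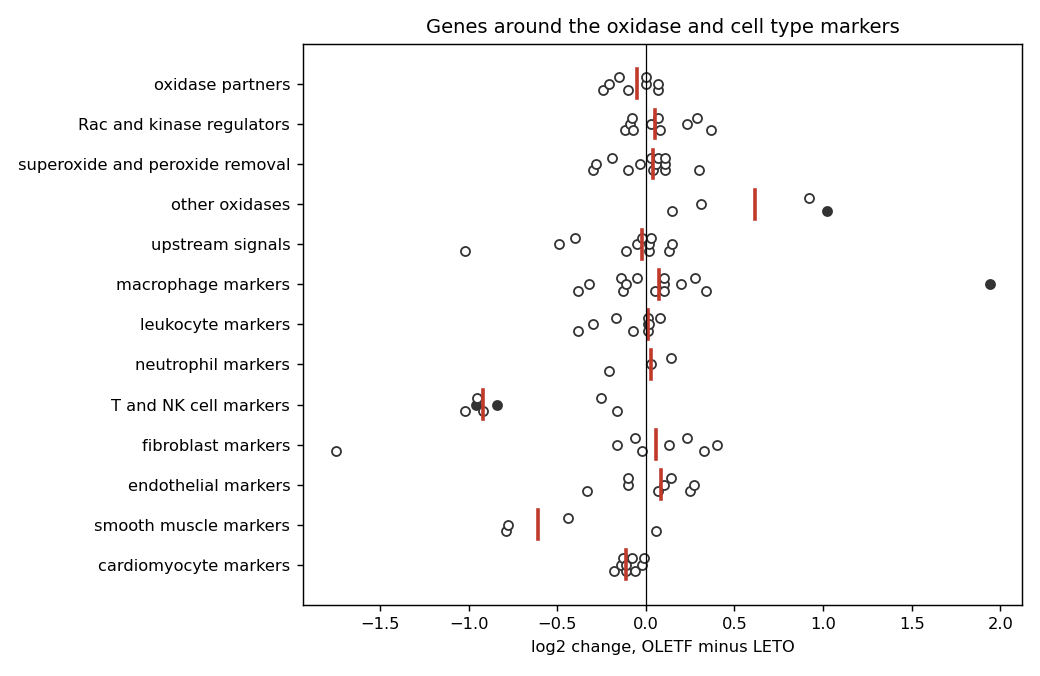
Each row is a gene list and each point a tested gene, placed by its log2 difference, OLETF minus LETO. Filled points had an adjusted p below 0.05 and the vertical red bars are the medians. The oxidase partners and the removal enzymes lie near 0 with no filled point, and the 7 T and natural killer cell markers and the 9 cardiomyocyte markers all lie below 0, with the cardiomyocyte markers close to it.

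The genes whose pattern over the 6 arrays was most like that of each called subunit were ranked by the root mean square difference of their log2 values, each centred on its own mean. Nox4 was nearest to Ddx25, an RNA helicase, at a distance of 0.107 among 18275 genes compared. Akr1b8, an aldo-keto reductase, followed at 0.155, and a probe without a gene name at 0.225. Their own differences were 1.58 for Ddx25 and 1.72 for Akr1b8. Ddx25 was also dim in LETO, with a mean of −5.17 beside −5.41 for Nox4. Ncf1 was nearest to LOC680039 at 0.056, Prickle1, a planar cell polarity protein, at 0.063 and Dus4l, a tRNA dihydrouridine synthase, at 0.067 among 18063 genes. Their differences were −0.56, −0.65 and −0.57. These distances describe 6 arrays and carry no test. A difference close to that of the called subunit follows from the choice by pattern, so it adds no evidence.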

How the data were processed

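Total RNA of left ventricle was hybridised to 1-colour Agilent Rat GE 4x44K v3 arrays, 1 array for each of 3 OLETF and 3 LETO rats. Groups and replicate numbers come from the sample titles. The source name of LETO 2 repeats the number 1, and the LETO files are numbered in another way, so single LETO arrays are called here by their titles. Agilent Feature Extraction made the spot values, in version 10.7.3.1 per the file headers and in version 9.1 per the submitters' processing notes. Per the file headers the processed signal is a linear intensity, background-subtracted and detrended within the array. The deposited table of processed values is linear intensity over an array constant, with medians of 0.154, 0.157 and 0.159 in OLETF and 0.163, 0.154 and 0.158 in LETO. Its logarithms correlated at 1.0000 with the scanner values, so it is neither on a log scale nor centred, and with 1 colour there is no direction to settle.

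Control spots and spots with an outlier flag, 260 to 356 per array, were left out. The remaining spots were put on the log2 scale and averaged by probe, and the 75th percentile of the array was subtracted. The brightest tested probe stood for each gene. Differences were tested with limma 3.58.1 (lmFit and eBayes) in R 4.3.3, with Benjamini-Hochberg adjustment over all 18816 genes, and intervals are at 95% without adjustment. limma reported 12.4% of all genes at an unadjusted p below 0.05. Python 3.11.15, numpy 2.4.6, pandas 2.3.3, matplotlib 3.10.9 and the data.table package (version 1.17.8) served for reading and plotting. The labels describe 3 independent experiments per strain, and precision is limited by how few arrays there are. The scripts were tested on simulated data.

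The members and the 13 gene lists were chosen with earlier results of these data known. Named are all 8 members, Noxa1, Noxo1, Cd68, Csf1r, Cd163, Itgam and Ptprc whatever their values, from each list up to 4 called genes or, where none was called, the 2 with the smallest p, and the 3 genes most like each called member. An item that this rule names was left out of the text. Other genes of the lists, such as those at background, were named after their values were seen. Cd68, Cybc1, Rac3 and Dock2 were not matched by name and are not analysed here. Alternatives changed the normalization, the background correction, the probe filter, the summary of probes, the variance model, array weights, the replicate block, age, slide and each array in turn. The percentile over spots in place of probes was added after the data were seen.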

Additional observations from a re-analysis of the deposited data

How the results depend on the processing

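Nox4 kept its direction in 20 of 20 alternatives, with log2 differences from 0.68 to 2.05 and adjusted p-values from 0.000911 to 0.335, and Ncf1 in 21 of 21, from −0.69 to −0.51 and from 0.00197 to 0.321. The call of Nox4 was lost without a filter on dim probes (1.71, adjusted p = 0.0943), with age as a covariate (1.61, adjusted p = 0.0602) and when slide was a block (1.47). That of Ncf1 was lost with median scaling (−0.56), without the filter (−0.58, adjusted p = 0.138) and when slide was a block (−0.63). Leaving out single arrays gave 1.47 to 2.02 for Nox4, called in 2 of 6 fits, and −0.67 to −0.53 for Ncf1, called in 1 of 6. A filter on all 6 arrays gave no value for Nox4, whose probe failed it. Rats of the strains share only a replicate number (correlations of deviations −0.088, −0.137 and −0.008), and with a replicate block Nox4 gave 1.71 (adjusted p = 0.0591) and Ncf1 −0.58 (adjusted p = 0.0952). The sign turned for Cybb with age as a covariate (−0.07) and without LETO 2 (−0.12, in a range of −0.12 to 0.27 without single arrays), and for Cyba (−0.03) and Rac2 (0.07) with slide as a block. Ncf4 and Rac1 stayed negative and uncalled in 21 of 21 alternatives. The strains did not overlap for Nox4, Ncf1, Ncf4 and Rac1. Leaving out or weighting arrays, or blocking on slide, could therefore not turn the sign of these genes.

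The 283 genes called higher became 149 without the filter, 875 with array weights, 166 with a replicate block, 52 with slide as a block, 435 with slide as a random block and 126 to 375 without single arrays. The 197 called lower became 91, 825, 135, 53, 328 and 87 to 239 under the same alternatives. Of 65 list medians under alternatives, 3 moved by more than the spread, to −0.53 for T and natural killer cells with normexp and quantile normalization, to −0.02 for endothelium with slide as a block and to 0.00 for cardiomyocytes with quantile normalization. The cause of these shifts was not tested. Signal over background limits Nox4 in LETO and Nox1 in both strains.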
